A study of Mus musculus with 2 samples.

Results

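A set of 9 genes linked to the first steps toward erythroid cells and megakaryocytes was followed in single cells sorted from the mouse yolk sac. The set was given by name: the transcription factor genes *Gata1*, *Klf1*, *Nfe2* and *Gfi1b*, the erythropoietin receptor gene *Epor*, the platelet chemokine gene *Pf4* and the embryonic globin genes *Hbb-bh1*, *Hbb-y* and *Hba-x*. All 9 had entries in the 2 count tables, among 23154 genes of which 13206 had a count in at least 1 cell. Every one of the 87 cells was used.

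The study sorted PK44 cells, which carry CD31, CD201, Kit and CD44 on their surface and lack CD41, CD43 and CD45, from the yolk sac of embryos at E10.0 (E for embryonic day). The mice were on the C57BL/6 background. Each cell was sequenced by a modified form of STRT-seq, a well-based method that tags each transcript with a molecular identifier. There was 1 condition, with no treatment and no genetic change, in 2 libraries of 43 cells (replicate 1) and 44 cells (replicate 2). The labels do not say whether the libraries came from different litters or from pools of embryos, so the spread between them may be technical. The gate selects for cells with surface CD41 protein absent, and CD41 is the product of *Itga2b*.

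Erythroid cells and megakaryocytes descend from shared progenitors, and the yolk sac makes the first of both in the embryo. *Gata1* is the master regulator of both lineages, *Klf1* drives the erythroid program including globin genes, and *Nfe2* and *Gfi1b* act in both. Part of these programs can be switched on in endothelial cells that are about to form blood, so-called hemogenic endothelium, for which *Runx1* is required and in which *Itga2b* is one of the first blood markers.

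The libraries held 8932527 and 12706360 counts, with a median of 141577 and 238899 per cell and a range over all cells of 13218 to 956593. They shared 0 cell barcodes. The 7 endothelial markers were all present, with 10 or more *Cdh5* counts in 83 of 87 cells. Replicate 1 included 1 cell with fewer than 2000 genes. In 3 cells, 2 of replicate 1 and 1 of replicate 2, the mesenchymal genes *Col1a1*, *Col1a2*, *Col3a1* and *Lum* stood at 100 or more counts each, against the endothelial label. These 3 cells are called cells with collagen genes below, for brevity.

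No transcript of *Gata1* was counted in either library. Its entry had 0 counts in 87 of 87 cells, which allows a share of up to 3.45% of cells with a count. Over both libraries together, 3 counts, the limit set here for a count of 0, correspond to 0.139 CPM (counts per 1e+06 counts of the library). Intervals and limits of this kind cover counting error only. *Gata1* lies on the minus strand at chrX:7959260-7978071 of GRCm38 in the GENCODE M21 annotation, which lists all 9 genes as protein coding.

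*Klf1*, at chr8:84901928-84905291 on the plus strand, had counts in 2 cells of replicate 2 and none of replicate 1. Cell 52 of replicate 2 held 46 of the 47 counts, and 1 other cell held 1 count. As CPM of the summed library, its level was 0 and 3.70, with 3 counts in replicate 1 corresponding to 0.336 CPM. The cell with 46 *Klf1* counts also carried 108 counts of *Runx1*, 30 of *Itga2b*, 140 of *Kit*, 61 of *Spi1* and 55 of *Myb*, and none of the other 8 genes.

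To show the sequences on which regulators of these genes act, the 250 bases before the start site in RefSeq are given for *Gata1*, which had no count, and for 4 genes that had counts, read 5′ to 3′ on the strand of the gene. The table of promoter sequences (GRCm38.p6) had an entry for 7 of the 9 genes and none for *Nfe2* and *Hbb-bh1*. Capitals mark matches on either strand to GATAA, the core letters bound by GATA factors (TTATC on the other strand), to CACCC, bound by factors of the KLF family (GGGTG), and to CCAAT, bound by NF-Y (ATTGG). These matches did not overlap one another in the windows shown.
Gata1: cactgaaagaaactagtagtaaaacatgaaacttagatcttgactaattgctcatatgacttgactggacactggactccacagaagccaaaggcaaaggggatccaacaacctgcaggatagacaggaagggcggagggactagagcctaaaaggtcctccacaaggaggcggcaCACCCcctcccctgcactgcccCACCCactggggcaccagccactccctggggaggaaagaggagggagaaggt
Gfi1b: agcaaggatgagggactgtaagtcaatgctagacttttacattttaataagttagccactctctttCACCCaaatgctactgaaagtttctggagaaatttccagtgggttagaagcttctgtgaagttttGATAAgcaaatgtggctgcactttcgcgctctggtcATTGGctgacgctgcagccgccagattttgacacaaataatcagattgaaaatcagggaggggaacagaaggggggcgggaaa
Epor: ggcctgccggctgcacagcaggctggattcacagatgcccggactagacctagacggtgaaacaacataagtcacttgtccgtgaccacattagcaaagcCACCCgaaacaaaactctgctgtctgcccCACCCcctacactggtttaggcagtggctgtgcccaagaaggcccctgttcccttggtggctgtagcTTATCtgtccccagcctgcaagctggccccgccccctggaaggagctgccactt
Hbb-y: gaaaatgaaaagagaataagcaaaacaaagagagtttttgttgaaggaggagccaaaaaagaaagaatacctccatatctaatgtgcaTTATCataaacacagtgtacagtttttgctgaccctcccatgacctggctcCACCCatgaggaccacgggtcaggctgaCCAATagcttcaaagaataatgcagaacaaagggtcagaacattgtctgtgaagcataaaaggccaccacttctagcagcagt
Hba-x: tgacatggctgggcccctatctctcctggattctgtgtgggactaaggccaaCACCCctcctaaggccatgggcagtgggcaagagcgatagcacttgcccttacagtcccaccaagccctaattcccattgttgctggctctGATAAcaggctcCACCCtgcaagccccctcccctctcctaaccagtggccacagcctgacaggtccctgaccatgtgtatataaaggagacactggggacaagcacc

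The windows are chrX:7967911-7968160 on the minus strand for *Gata1*, chr2:28621983-28622232 on the minus strand for *Gfi1b*, chr9:21963577-21963826 on the minus strand for *Epor*, chr7:103853208-103853457 on the minus strand for *Hbb-y* and chr11:32276350-32276599 on the plus strand for *Hba-x*. The *Gata1* window lies within the longer span that GENCODE gives to the gene. From chr11:32276400 on, the *Hba-x* window also lies within the span of its gene, and its marked matches are in that part. The *Hbb-y* window overlaps its gene by a few bases, up to chr7:103853216. GATAA was found in 5 of the 7 genes with an entry, all but *Gata1* and *Pf4*, and in 22.6% of the 32841 windows of the same length in the table. CACCC was found in 6 of the 7 and in 52.0% of all windows, and CCAAT in 4 of the 7 and in 33.9%. The GATAA match began 119 bases before the start of *Gfi1b*, 54 before *Epor*, 162 before *Hbb-y* and 107 before *Hba-x*. A match describes these letters and is not evidence of binding in these cells.

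The other transcription factor genes were detected in both libraries. *Gfi1b* encodes a zinc finger repressor needed for erythroid cells and megakaryocytes and lies at chr2:28609450-28621982 on the minus strand. It had a count in 35 cells and 10 or more counts in 12, which is 13.8% of 87 cells (exact 95% interval 7.34 to 22.9). The 6 cells of replicate 1 with 10 or more had 63, 53, 37, 23, 21 and 19 counts, and the 6 cells of replicate 2 had 47, 43, 23, 22, 16 and 15. The ranges of the 2 libraries overlapped. The level was 26.6 CPM in replicate 1 and 13.6 CPM in replicate 2 (20.1 ± 9.21, SD, n = 2).

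*Nfe2*, at chr15:103248212-103258403 on the minus strand, encodes the tissue-specific subunit of the factor NF-E2, which acts in globin expression and platelet formation. It had a count in 22 cells and 10 or more in 7, or 8.05% of 87 (3.30 to 15.9). The 3 such cells of replicate 1 held 101, 80 and 66 counts, while the 4 of replicate 2 held 28, 23, 22 and 15. Scaled to the depth of each cell, the 2 sets overlapped. Cell 60 of replicate 2 stood at 124 CPM within the cell and cell 10 of replicate 1 at 94.0 CPM. The level was 29.6 and 7.24 CPM (18.4 ± 15.8, SD, n = 2). The 7 cells were deep, with a median of 509331 counts against 218534 over all cells.

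*Epor*, at chr9:21958897-21963506 on the minus strand, encodes the receptor for erythropoietin, the survival signal of erythroid progenitors. It had 10 or more counts in 5 cells, 5.75% of 87 (1.89 to 12.9), with 32 and 19 counts in replicate 1 and 73, 36 and 29 in replicate 2. A further 7 cells held 1 to 8 counts, all of them in replicate 2. The level was 5.71 and 12.3 CPM (8.99 ± 4.64, SD, n = 2).

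*Pf4*, platelet factor 4, is a chemokine stored in platelets and lies at chr5:90772435-90773383 on the plus strand. It reached 10 or more counts in 1 cell of replicate 1, with 35, and in 4 cells of replicate 2, with 215, 89, 70 and 31. Cell 95 of replicate 2 alone held 47.0% of all *Pf4* counts and stood at 1334 CPM within that cell. The level of *Pf4* was 4.70 CPM in replicate 1 and 32.7 CPM in replicate 2 (18.7 ± 19.8, SD, n = 2), and without the highest cell of each library the mean fell to 8.37 CPM.

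The embryonic globin genes encode the beta-like chains (*Hbb-bh1*, *Hbb-y*) and the alpha-like chain (*Hba-x*) of the hemoglobin in the first yolk sac red cells, in which globin transcripts are among the most abundant. *Hbb-y*, at chr7:103851749-103853216 on the minus strand, had 10 or more counts in 5 cells, with 12 and 11 counts in replicate 1 and 104, 31 and 16 in replicate 2, and its level was 3.13 and 12.1 CPM (7.63 ± 6.35, SD, n = 2). *Hbb-bh1*, its neighbor at chr7:103841637-103843164 on the same strand, had 62 counts in cell 10 of replicate 1 and 43 in cell 53 of replicate 2, with 7.05 and 3.54 CPM (5.30 ± 2.48, SD, n = 2). *Hba-x*, at chr11:32276400-32278116 on the plus strand, had 38 counts in cell 54 of replicate 2, 1 count in another cell and none in replicate 1. No cell had 10 or more counts of more than 1 of these 3 globin genes, and the highest level of any of them within a cell was 294 CPM, for *Hba-x*.

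**Figure D1:**
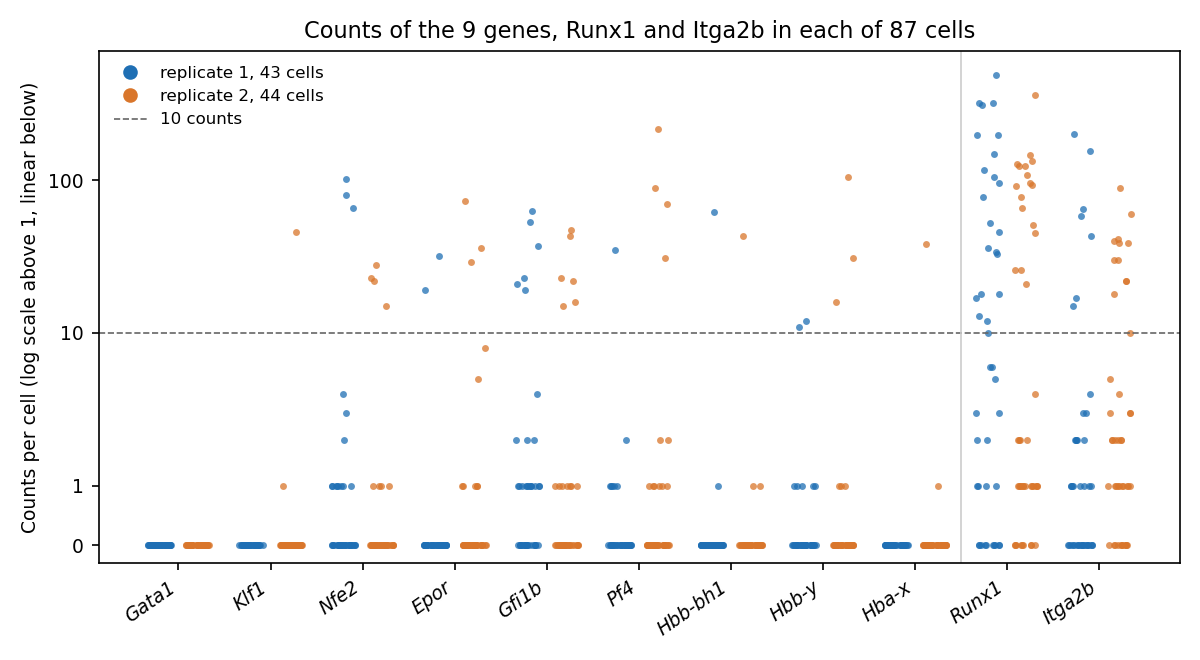
Counts per cell of the 9 genes and, right of the gray line, of *Runx1* and *Itga2b*, on an axis that is logarithmic above 1 and linear below, with 1 point for each cell, blue for the 43 cells of replicate 1 and orange for the 44 cells of replicate 2. Most cells lie at 0 for each of the 9 genes, *Gata1* has no point above 0, and the 12 *Gfi1b* cells above the dashed line of 10 counts are split evenly, 6 and 6, between the libraries.

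In all, 29 of 87 cells (33.3%, exact 95% interval 23.6 to 44.3) had 10 or more counts of at least 1 of the 9 genes, 13 in replicate 1 and 16 in replicate 2. They are called priming-gene cells here for brevity, by that count alone. Their median depth was 258757 counts, against 177445 in the other 58 cells. Of the 29, 21 had 1 such gene, 7 had 2 genes and 1 had 3 genes. The summed level of the 9 genes was 76.8 CPM in replicate 1 and 88.2 CPM in replicate 2 (82.5 ± 8.08, SD, n = 2). It fell to 44.0 CPM when, for each gene, the cell with the most counts was left out of each library.

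Among the pairs of the 9 genes, *Nfe2* and *Gfi1b* had the most cells in common. Of the 7 *Nfe2* cells, 5 also had 10 or more *Gfi1b* counts, in both libraries: cell 10 of replicate 1 (66 *Nfe2* and 53 *Gfi1b* counts) and cells 60 (23 and 43), 62 (22 and 23), 77 (28 and 16) and 50 (15 and 15) of replicate 2. The other 2 *Nfe2* cells, 47 and 16 of replicate 1, had 101 and 80 *Nfe2* counts with 1 and 0 *Gfi1b* counts. Among 9084 other genes with 10 or more counts in at least 5 cells, 0.121% shared as large a part of their cells with *Gfi1b*. Such shares move with the number and the depth of the cells, which were not matched.

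The other pairs were few. *Gfi1b* and *Pf4* shared 2 cells, 83 and 95 of replicate 2, and *Epor* and *Pf4* shared cell 70 of that library. *Hbb-bh1* shared cell 10 of replicate 1 with both *Nfe2* and *Gfi1b*, the only cell with 3 of the genes. The 5 *Epor* cells and the 12 *Gfi1b* cells had no cell in common. Of the 8 cells with 10 or more counts of a globin gene, 7 had no other gene of the set at that level.

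**Figure D2:**
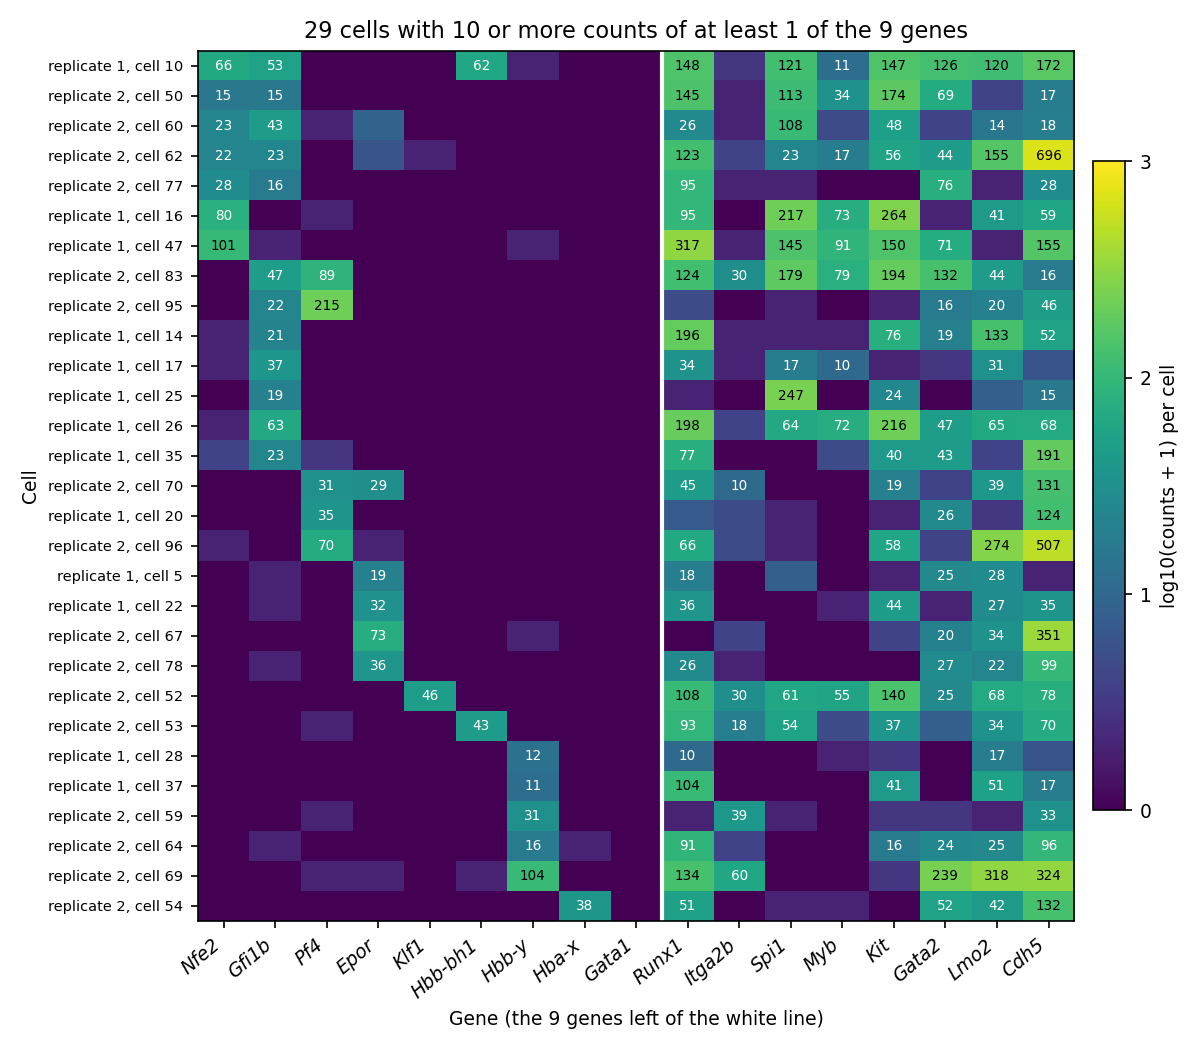
Counts in the 29 cells with 10 or more counts of at least 1 of the 9 genes, with 1 line of the matrix for each cell and the color giving log10(counts + 1). Printed counts are those of 10 or more. *Nfe2* and *Gfi1b* fill the same 5 lines at the top, the globin cells at the bottom carry no other gene of the set at 10 or more counts apart from cell 10 of replicate 1, and *Runx1* is filled in 24 of 29 lines, against 6 for *Itga2b*.

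The first question was whether these genes were found in the cells that expressed *Runx1*, the gene required for blood formation from endothelium. *Runx1* (chr16:92601466-92826149, minus strand) had 10 or more counts in 39 cells, 22 of replicate 1 and 17 of replicate 2. Of these 39, 24 were priming-gene cells (61.5%, 44.6 to 76.6), against 5 of the 48 cells with fewer *Runx1* counts (10.4%, 3.47 to 22.7). The direction was the same in each library, with 11 of 22 against 2 of 21 in replicate 1 and 13 of 17 against 3 of 27 in replicate 2, and the exact intervals of the 2 shares overlapped in replicate 1 (28.2 to 71.8 and 1.17 to 30.4) and did not in replicate 2 (50.1 to 93.2 and 2.35 to 29.2). Depth moved with this split, since the median was 284710 counts in the cells with *Runx1* and 143954 in the others. After thinning to 20000 counts a cell, without 1 cell of replicate 1 that was shallower than this, and with 1 count taken as detection, 25 of 43 cells with *Runx1* (58.1%) and 9 of 43 without (20.9%) had a count of at least 1 of the 9 genes.

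The members differed in how fully they lay in *Runx1* cells. All 7 *Nfe2* cells had 10 or more *Runx1* counts, from 26 to 317 with a median of 123. Of all 9084 genes compared, 1.12% reached that share, and the median gene had 55.3% of its cells among those with *Runx1*. For *Gfi1b* it was 10 of 12 cells (4.26% of genes at or above), for *Epor* and *Hbb-y* 4 of 5 each (6.42%), and for *Pf4* 3 of 5, which 37.7% of genes reached. The single *Klf1* cell, the single *Hba-x* cell and both *Hbb-bh1* cells had 51 to 148 *Runx1* counts. The 9084 genes were not matched to the members in the number or depth of their cells. A gene with more than 39 cells cannot have all of them among the 39 cells with *Runx1*, so these percents do not measure rarity.

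For *Itga2b* (chr11:102453297-102470122, minus strand), which encodes the integrin chain that the sort excluded on the cell surface, the shares lay within each other's intervals. Transcripts of it were present in 56 cells, and 19 cells, 7 of replicate 1 and 12 of replicate 2, had 10 or more counts. Of these 19, 6 were priming-gene cells (31.6%, 12.6 to 56.6), against 23 of 68 others (33.8%, 22.8 to 46.3). The libraries differed in direction, with 0 of 7 against 13 of 36 in replicate 1 and 6 of 12 against 10 of 32 in replicate 2. After thinning to 20000 counts the numbers were 12 of 27 and 22 of 59. *Runx1* and *Itga2b* were both at 10 or more counts in 9 cells.

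High *Itga2b* was rare in the cells with *Nfe2*. None of the 7 *Nfe2* cells had 10 or more *Itga2b* counts, as was so for 2.53% of the 9084 genes. The highest *Itga2b* count in the 7 cells was 3. Of the 12 *Gfi1b* cells, 1 had 10 or more *Itga2b* counts (3.28% of genes at or below), and of the 5 *Epor* cells, 1 (21.1%). *Pf4* and *Hbb-y* had 2 of 5 cells each with *Itga2b*, and 92.0% of genes had that share or a smaller one. With 5 to 12 cells per gene these shares are coarse, and the genes compared were not matched in the number or depth of their cells.

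**Figure D3:**
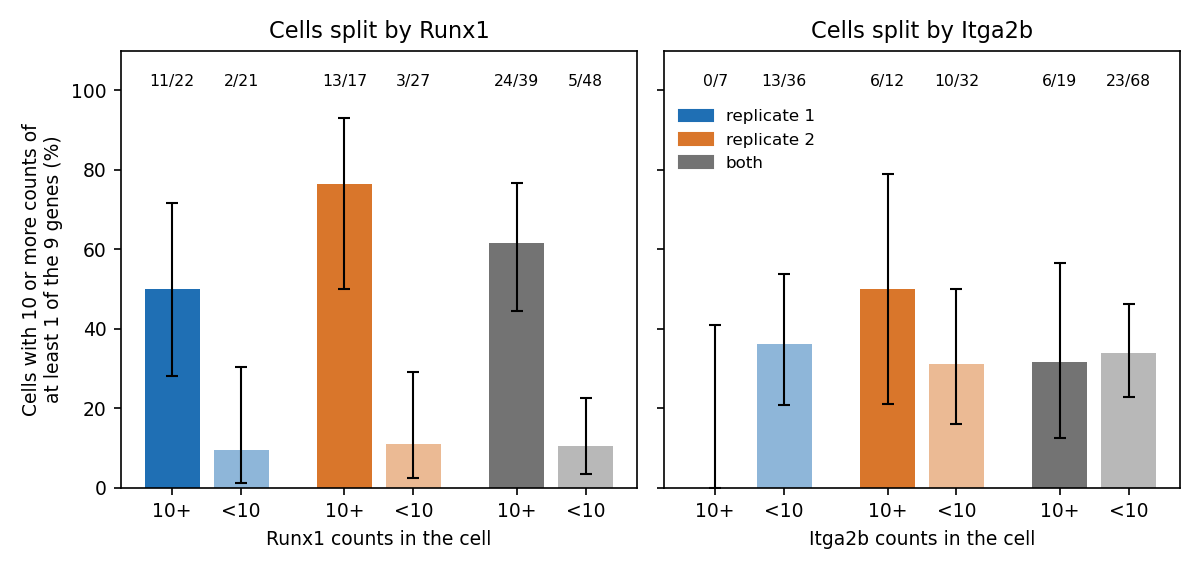
Percent of cells with 10 or more counts of at least 1 of the 9 genes, among cells with 10 or more and with fewer than 10 counts of *Runx1* (left) or *Itga2b* (right). Bars give each library and both together, error bars are exact 95% binomial intervals, and the numbers above give cells with such a gene over cells in the class: 24 of 39 against 5 of 48 for *Runx1*, and 6 of 19 against 23 of 68 for *Itga2b*.

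Because cells of a library are not replicates, counts were also summed per library over the cells above and at or below the median *Runx1* CPM of that library, which gave 4 sums, and tested across all genes with the quasi-likelihood test of edgeR. *Nfe2* had 260 counts in the high and 4 in the low cells of replicate 1, and 91 and 1 in replicate 2. As normalized CPM, the high sums stood at 45.0 and 11.8 and the low sums at 1.30 and 0.193. The log2 fold change was 5.26 (SE 1.91), and its adjusted p in edgeR was 0.804, with a range of 0.0654 to 0.891 over the alternatives. *Nfe2* did not pass the threshold of 0.05 in any of them.

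Of the 6 genes of the set that passed the low-count filter, 0 were called by edgeR in this split, where 0.0% of the 10629 other genes tested were called higher and 0.00941% lower in the *Runx1*-high sums. At an unadjusted p under 0.05 there were 2, *Nfe2* and *Hbb-bh1*, where 5.53% of all genes had such a p, and 1 with the library as a block. Both *Nfe2* and *Hbb-bh1* passed the filter only through the sums in which they were high, so this number is a description only. DESeq2 called 0 of 8. *Klf1*, *Hba-x* and *Gata1* did not pass the filter. *Runx1* itself, which set the classes, had a log2 fold change of 5.17 and an adjusted p in edgeR of 0.262. The main test thus did not call the gene that set the split, and 0 called members do not show an absence of difference.

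*Gfi1b* had 211 counts in *Runx1*-high and 27 in *Runx1*-low cells of replicate 1, and 169 and 4 in replicate 2. Its log2 fold change was 2.61 (SE 1.59, adjusted p in edgeR 0.969, 0.559 to 0.972 over the alternatives). *Hbb-bh1* had 63 and 45 counts in the high sums and 0 in both low sums, so that it was at least 11.6-fold higher in replicate 1 and at least 10.1-fold higher in replicate 2, with 3 counts per low sum as the limit, though in each library 1 cell held all but 1 or 2 of the counts. *Hbb-y* had 27 against 1 and 121 against 33 counts, with a log2 fold change of 1.58 (SE 2.24). Without the cells with collagen genes, among them cell 59 of replicate 2 with 31 *Hbb-y* counts in the low class, it was 4.68.

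*Epor* and *Pf4* had no common direction. *Epor* had 51 counts in *Runx1*-high and 0 in *Runx1*-low cells of replicate 1, but 80 and 76 in replicate 2. As normalized CPM it stood at 8.83 and 0 in replicate 1 and at 10.4 and 14.7 in replicate 2, opposite directions in the 2 libraries. *Pf4* had 5 counts in the high and 37 in the low cells of replicate 1, and 413 and 2 in replicate 2, log2 differences of -3.33 and 6.16 within the libraries. For *Pf4* the sums rest on the cell with 35 counts in replicate 1 and on the 4 cells of replicate 2. The median log2 fold change over the 6 tested genes was 2.37, against -0.01 over all genes, and it is the same with *Hbb-bh1* at its limit. Genes with counts in few cells pass the filter through the sum in which they are high, so this median is a description only.

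In the sums split by the median *Itga2b* CPM, which use the same cells again, 0 of the 6 tested genes were called by edgeR, where 0.00937% of 10678 other genes were called higher and 0.0% lower in the *Itga2b*-high sums. At an unadjusted p under 0.05 there was 1, *Hbb-bh1*, again in the filter only through its high sums, where 1.94% of all genes had such a p, and with the split at 10 *Itga2b* counts there were 0. DESeq2 called 0 of 8. The high classes of this split began at 1 *Itga2b* count in both libraries. *Itga2b* itself had a log2 fold change of 5.94 and an adjusted p in edgeR of 0.176, so 0 called members again show no absence of difference. *Nfe2* had 79 counts in the *Itga2b*-high and 185 in the *Itga2b*-low cells of replicate 1, and 1 and 91 in replicate 2. Its log2 fold change was -1.98 (SE 1.67), so it was lower in both high sums without passing the test (adjusted p in edgeR 1.00, 0.999 to 1.00 over the alternatives). *Gfi1b* stood at 187 against 51 and 52 against 121 counts, and *Hbb-y* at 2 against 26 and 152 against 2, opposite directions in the 2 libraries for both genes. Of the *Gfi1b* cells of replicate 1 in the high class, cells 10, 14, 17 and 26 had only 1 to 3 *Itga2b* counts.

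Regulators that work with these factors were widely present. Of the 12 partner and regulator genes listed with the set, 12 had 10 or more counts in at least 3 cells: *Fli1* in 50, *Lmo2* in 46, *Lyl1* in 43, *Gata2* and *Runx1* in 39 each, *Kit* in 36, *Bcl11a* in 35, *Tal1* in 28, *Ldb1* in 25, *Myb* in 14, *Zfpm1* in 13 and *Gfi1* in 10. *Tal1*, *Lmo2*, *Ldb1* and *Lyl1* encode parts of the complex in which GATA factors act, and *Zfpm1* encodes FOG-1, the cofactor of GATA1. *Gata2*, the family member expressed in progenitors and endothelium, was thus present in many of the cells in which *Gata1* was at 0.

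The same genes were then read in the cells of each member. *Spi1*, which encodes the myeloid factor PU.1 and was chosen after its values were seen, had 10 or more counts in 6 of 7 *Nfe2* and 8 of 12 *Gfi1b* cells, in 0 of 5 *Epor* and 0 of 5 *Hbb-y* cells, and in 18 of 87 cells (20.7%). *Myb*, needed for definitive progenitors, was at 10 or more counts in 5 of 7 *Nfe2* and 6 of 12 *Gfi1b* cells (0.297% and 3.15% of genes at or above), in 0 of 5 *Epor* and 0 of 5 *Hbb-y* cells, and in 14 of 87 cells (16.1%). *Kit* was there in 6 of 7 and 9 of 12 cells (1.77% and 6.12%) and in 2 of 5 *Epor* cells. *Lmo2* had 10 or more counts in 5 of 5 *Epor* and 4 of 7 *Nfe2* cells, and in 52.9% of all cells. These genes were compared with no test, and 5 cells are shared by the *Nfe2* and *Gfi1b* groups. The genes behind the percents at or above were not matched in the number or depth of their cells. A gene with many cells cannot have most of them among the 14 cells with *Myb*.

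Single cells show how the set combined. Cell 47 of replicate 1, with 101 *Nfe2* counts, had 317 of *Runx1*, 145 of *Spi1*, 91 of *Myb*, 15 of *Alas2*, the erythroid form of the first heme enzyme, and 14 of *Ptprc*, which encodes CD45. Cell 26 of replicate 1, with 63 *Gfi1b* counts, had 113 counts of the sister gene *Gfi1* and 63 of *Icam4*, a red cell adhesion molecule. Cell 83 of replicate 2 combined 89 *Pf4* and 47 *Gfi1b* counts with 87 of *Gp9*, part of the platelet receptor for von Willebrand factor, 30 of *Itga2b* and 124 of *Runx1*. *Alas2* and *Gp9* each had 1 other cell at 10 or more counts. These were cell 19 of replicate 1 with 13 *Alas2* counts and cell 91 of replicate 2 with 97 *Gp9* counts. Both had 0 of the 9 genes at that level.

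Other *Pf4* cells were unlike that one. Cell 95 of replicate 2, with 215 *Pf4* and 22 *Gfi1b* counts, had 4 of *Runx1*, 0 of *Itga2b*, 0 of *Gp9* and 129 of *Clec1b*, a platelet receptor gene that lymphatic and some other endothelium also uses. Cell 96, with 70 *Pf4* counts, had 725 of *Clec1b* and 507 of *Cdh5*. These cells were picked out after their values were seen.

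Of 30 further erythroid genes, 28 had entries and 14 of those were at 0 in all 87 cells. The 14 included the adult globins *Hbb-bt*, *Hbb-bs*, *Hba-a1* and *Hba-a2* and the anion exchanger gene *Slc4a1*. At least 10 counts in 3 or more cells were found for 11 genes, among them *Car2* (36 cells), the heme synthesis genes *Alad* (34), *Urod* (24), *Cpox* (11) and *Fech* (7), *Sox6* (16), the transferrin receptor gene *Tfrc* (15), the mitochondrial iron carrier gene *Slc25a37* (10), *Blvrb* (8) and *Tmcc2* (5). The enzymes of heme synthesis that every cell uses were thus found in more cells than *Alas2*, which had 10 or more counts in 2 cells of replicate 1 and 0 counts in replicate 2. The counts were of uniquely mapped reads, and 86.9% of the 50-base windows of the *Hba-a2* transcript occur in *Hba-a1* and 65.8% of those of *Hbb-bs* in *Hbb-bt*, so that the zeros of the adult globins are uncertain. None of the windows of *Hbb-bh1*, *Hbb-y* and *Hba-x* occur in another globin of the set.

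Of 22 further megakaryocyte and platelet genes, *Itga2b* included, 7 were at 0, among them *Gp1bb*, *Gp5*, *Gp6*, *Ppbp* and *Treml1*, and 12 had 10 or more counts in at least 3 cells. The most frequent, *F2r* (60 cells), *Mef2c* (58), *Vwf* (46) and *Cd9* (41), are also genes of endothelial cells. *Itga2b* (19), *Clec1b* (17), *Nbeal2* (17), *Itgb3* (15), *Rab27b* (14), *Plek* (12) and *Selp* (8) followed. *Gp9* and *Gp1ba* reached 10 counts in 2 cells each and *Thbs1* in 1.

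In the *Runx1* split, 0 of the 13 erythroid, 0 of the 12 megakaryocyte and 0 of the 11 regulator genes tested were called by edgeR in either direction. Their median log2 fold changes were 0.51, 0.36 and 0.34, against -0.01 over all genes, and 1, 2 and 1 of them had an unadjusted p under 0.05, against 5.53% of all genes: *Car2* (1.59), *Itga2b* (-2.30), *Vwf* (-1.53) and *Bcl11a* (1.65, log2 scale). With the library as a block, which called 1.56% of all genes, *Vwf* passed as lower and *Bcl11a* and *Kit* as higher in the *Runx1*-high sums. In the *Itga2b* split 0 genes of the 3 lists were called, and 0 had an unadjusted p under 0.05.

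**Figure D4:**
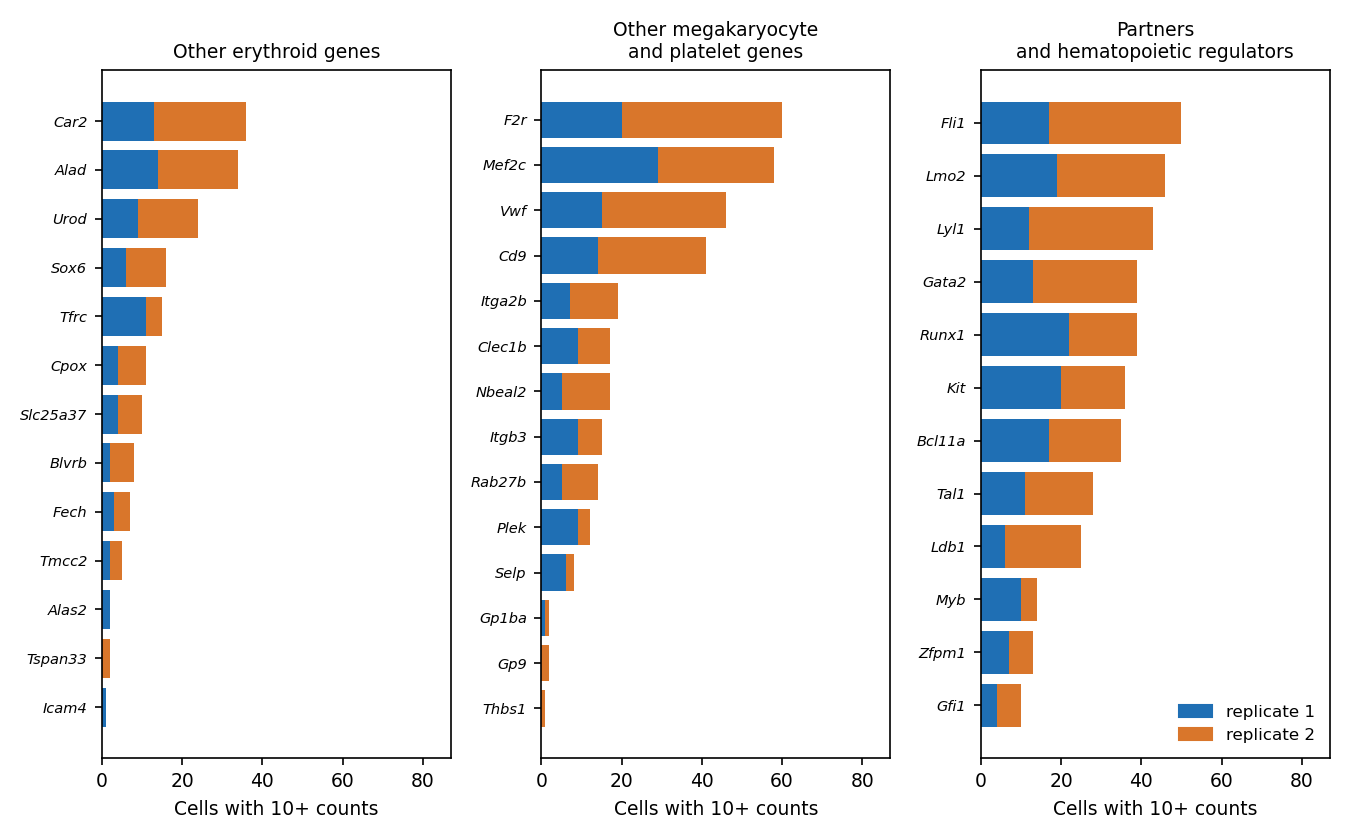
Number of cells with 10 or more counts of genes of the 3 further lists, out of 87 cells, as bars stacked by library (blue replicate 1, orange replicate 2). The 14 erythroid and 7 megakaryocyte genes at 0 are left out, while all 12 partners and regulators have 10 cells or more.

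Markers of other cell types were read beside these results, although a sort for CD41-, CD43- and CD45- cells leaves out megakaryocytes, platelets and macrophages that carry these proteins on the surface. Of 8 markers of erythroid cells, 7 were at 0 in all cells, all but *Alas2*, and of 8 markers of megakaryocytes and platelets 5 were at 0. The erythroid markers summed to 0 to 21.8 CPM in the priming-gene cells and 0 to 189 CPM in the others (median 0 in both). For the megakaryocyte and platelet markers the sums were 0 to 281 and 0 to 379 CPM (median 0 in both). Of 8 markers of macrophages and myeloid cells, *Cx3cr1*, *Adgre1* and *C1qa* were at 0, and the list summed to 0 to 522 CPM (median 101) in the priming-gene cells and 0 to 529 CPM (median 0.841) in the others. The 7 endothelial markers summed to 341 to 6758 CPM (median 1262) in the priming-gene cells and 179 to 8483 CPM (median 3165) in the others. The part of these differences, and of the depth, in the results above was not tested.

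Mesenchymal markers summed to 0 to 20020 CPM (median 32.4) in the priming-gene cells and 0 to 22085 CPM (median 32.1) in the others. One of the 29 priming-gene cells, cell 59 of replicate 2 with 31 *Hbb-y* counts, was among the cells set apart by collagen genes, with 1589 counts of *Col1a1*, 39 of *Itga2b* and 1 of *Runx1*, and without such cells 28 remain. Cell 64 of replicate 2, with 16 *Hbb-y* counts, had 18 counts of *Afp*, a gene of the visceral endoderm, for which 4 of 7 markers were at 0 in all cells.

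Low counts were a large part of the values. Of 110 values above 0 for the 9 genes, 60 were exactly 1, 7 were 2, 5 were 3 to 9 and 38 were 10 or more, so that 65.5% were below 10. Over all genes the share of values from 1 to 9 was 46.9%. These low values held few of the counts, from 0% (*Epor* in replicate 1) to 17.9% (*Hbb-y* in replicate 1) of the counts of a gene in a library. The cells with 10 or more counts held from 91.3% (*Epor*) to 97.9% (*Klf1*) of the counts of a gene.

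Low counts were also compared between libraries with and without such a cell. In 14 of the 18 combinations of gene and library a cell had 10 or more counts, and 13 of those 14 also had cells with 1 to 9. In the other 4, *Gata1* in both libraries and *Klf1* and *Hba-x* in replicate 1, 0 had a cell with a low count. *Gata1* had no count at all, and *Klf1* and *Hba-x* had 1 low count each in replicate 2, so these 4 say little. Over all genes, 643 had 10 or more counts in a cell of replicate 1 and in none of replicate 2, and 64.1% of them had low counts in replicate 1 against 43.5% in replicate 2. For the 1606 genes of the opposite kind the shares were 77.3% in replicate 2 and 29.9% in replicate 1. Whether low counts passed between the barcodes pooled in a library was not tested.

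Within the members with 10 or more counts in at least 5 cells, the genes most alike between cells were named by Spearman correlation of log2(CPM + 1), centred within library, over 87 cells that share library and depth. The 3 nearest of 9085 genes were *Man2b2*, *Rpp40* and *Spn* for *Nfe2* (0.67, 0.61 and 0.60), *Eif2ak4*, *Phb2* and *P2rx1* for *Gfi1b* (0.54, 0.47 and 0.47), *Fam217b*, *Smpd1* and *Klf8* for *Epor* (0.75, 0.70 and 0.65), *Engase*, *Hibch* and *Lig4* for *Pf4* (0.73, 0.61 and 0.59) and *Usp54*, *Gm20939* and *Slfn10-ps* for *Hbb-y* (0.74, 0.72 and 0.67). Centring sets the cells at 0 counts of the 2 libraries to different values, and ranks taken within each library gave lower correlations for the nearest genes. *Gm20939* and *Slfn10-ps* had 0 cells in common with *Hbb-y* at 10 or more counts, whereas *P2rx1*, a platelet ATP receptor gene, had 7 of its 9 cells in common with *Gfi1b*. By those ranks the nearest genes were *Sac3d1* for *Nfe2* (0.54), *Eif2ak4* for *Gfi1b* (0.46), *Smpd1* for *Epor* (0.51), *Engase* for *Pf4* (0.58) and *Megf11* for *Hbb-y* (0.48). The correlation with *Runx1* was 0.35 for *Gfi1b*, 0.28 for *Nfe2*, 0.24 for *Pf4*, 0.12 for *Hbb-y* and 0.08 for *Epor*, and with ranks within each library 0.34, 0.36, 0.24, 0.14 and 0.11, which turned the order of *Gfi1b* and *Nfe2*.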

How the data were processed

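Per the study's methods, the authors split reads by cell barcode, aligned them to the mm10 transcriptome with HISAT2 2.1.0, counted uniquely mapped reads with HTSeq and collapsed duplicates by molecular identifier. The deposited values are counts per gene and cell, without normalization. The members and the gene lists were chosen with earlier results of these data known. Per those methods, cells with more than 2000 genes and a minimum of transcripts were kept. Cells with too many reads or genes were left out as possibly not single. All 87 deposited cells entered here, 1 of them under that gene minimum, and doublets were not called.

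CPM was computed from the summed counts of a library. Cells were counted at a minimum of 10 counts, with exact (Clopper-Pearson) 95% intervals. Counts summed per library and class were tested, two-sided, by the quasi-likelihood method of edgeR 4.0.16 (R 4.3.3) after filterByExpr and TMM scaling. P-values were adjusted by Benjamini-Hochberg over all genes, with a threshold of 0.05, and DESeq2 1.42.0 was an alternative. The classes were cut at the median CPM of a gene, not at a label, so p-values measure the spread between 2 libraries. The sums of a library share that library, which pairs them: their deviations correlated at 0.18 across 10630 genes for *Runx1*. The fit was tested on simulated data, with changes set in genes above the median level only. Without a block it recovered 6.5% of them at a log2 change of 2, 77.0% at 4 and 87.0% at 6, with 0, 6 and 13 false calls. The simulated sums were drawn independently of one another and did not model counts held by few cells. These shares therefore do not describe the members.

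Named genes were the 9 members, *Runx1*, *Itga2b*, list genes with 10 or more counts in at least 3 cells or past the test, and the 3 nearest genes of members with at least 5 such cells. Other settings were other size factors, no filter, a library block, a split at 10 counts, cells thinned to 20000 counts, other count minimums, and libraries or cells left out. Some list genes are counted but not reported here by name. Lists of barcodes were used only to compare libraries. Gene positions are from GENCODE M21, and promoter sequences from RefSeq.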

Additional observations from a re-analysis of the deposited data

How the results depend on the processing

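In both splits, 0 members were called under each of the other tools, size factors, filters, splits and cell selections. The main fit called neither *Runx1* nor *Itga2b* in its own split, so these zeros are weak. With the library as a replicate block, calls over all genes went from 1 to 166 in the *Runx1* split and from 1 to 7 in the *Itga2b* split, while 0 members were called. The block moved the log2 fold change of *Epor* from 0.37 to 2.46 in the *Runx1* split and from -0.31 to -2.66 in the *Itga2b* split, that of *Nfe2* from -1.98 to -3.54 in the *Itga2b* split, and turned that of *Pf4* there, from -0.62 to 0.76. In the *Runx1* split, DESeq2 called 136 genes, no filter 67 and a split at 10 counts 3, and leaving out the cells with collagen genes left 0. In the *Itga2b* split these numbers were 8, 3, 0 and 0. With thinned cells, from which the 1 cell with fewer than 20000 counts was left out, no member passed the filter.

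Directions that turned were those of *Pf4* (-0.88) in the *Runx1* split at 10 counts and of *Gfi1b* (-1.80) in the *Itga2b* split at 10 counts. With 1 library left out, the log2 fold change in the *Runx1* split ranged from -0.49 to 4.64 for *Epor* and from -3.33 to 6.16 for *Pf4*. In the *Itga2b* split it ranged from -5.24 to 1.13 for *Epor*, -1.06 to 1.42 for *Gfi1b*, -1.02 to 2.46 for *Pf4* and -3.25 to 5.23 for *Hbb-y*. The cause was not tested.

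The number of cells with a member was 29, and 60 at 1 or more counts, 19 at 30 or more, 13 and 16 in the single libraries, 30 at 3 or more, 34 after thinning and 27 at 50 CPM or more. Chosen after seeing the data, leaving out cells with collagen genes gave 28, and leaving out the cell with fewer than 2000 genes gave 29. The summed level of 82.5 CPM fell to 44.0 without the highest cells and was 76.8 to 88.2 in the single libraries. Depth limits the zeros: in the shallowest cell, 13218 counts were read.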
